A study of Saccharomyces cerevisiae with 210 samples.

Results

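The RNA response of the glr1 mutant of Saccharomyces cerevisiae was measured 3 min after CHP was added, in 3 treated cultures against 3 untreated cultures of the same mutant. These 6 arrays were chosen by their sample titles out of 210 arrays in the series, and all 5656 genes with a probe set of their own were tested. The labels give the strain as BY4743, a diploid laboratory strain, and call the genotype a glr1 mutant without naming the alleles. Every culture grew in a 1 L fermentor at 30C and pH 6.0, and in mid-exponential phase the treated cultures received 0.19 mM CHP. The labels use only the abbreviation CHP, which is read here as cumene hydroperoxide, an organic peroxide. The series holds wild type and the mutants yap1, glr1, gpx1, gpx2, grx1 and grx2, each grown as 3 CHP and 3 control cultures sampled at 0, 3, 6, 12 and 20 min. The comparison groups used here are wild type and the yap1 mutant at 3 min, each 3 CHP against 3 control cultures of BY4743 background, and the glr1 cultures themselves at their other times. All levels are log2 values made by the authors with RMA (robust multi-array average), so a difference of 1 is a doubling. An array measures RNA relative to the rest of the sample, so less RNA per cell and fewer cells of a kind cannot be told apart.

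GLR1 encodes glutathione reductase, which uses NADPH to return oxidized glutathione to its reduced form. In budding yeast, peroxides are removed by peroxiredoxins, which draw on thioredoxin, and by glutathione peroxidases, and the enzymes of both routes are largely under the transcription factor Yap1. An oxidized peroxidase passes the signal to Yap1, which then stays in the nucleus and binds the promoters of its target genes. SRX1, used here as the marker of the response, encodes sulfiredoxin, which repairs overoxidized peroxiredoxins.

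The GLR1 signal was low in the mutant, and SRX1 was even between the cultures at 0 min. GLR1 lay between 3.78 and 4.72 in the 6 glr1 arrays at 3 min (4.13 ± 0.40, SD, n = 6) and between 9.04 and 9.39 in wild type (9.20 ± 0.13, SD, n = 6). SRX1 was between 6.11 and 6.78 in all 6 glr1 cultures before CHP, with no culture apart. The labels and the design text put the 0 min sample of the CHP cultures before the oxidant was added. The descriptions of the untreated control cultures place their 0 min sample after that addition, which the design text does not. At 0 min limma called 0 of 5656 genes (0%) between the 2 arms, with 192 (3.39%) at an unadjusted p below 0.05. The smallest p-values there were those of DST1 (0.66 higher in the CHP arm), YMR105W-A (-0.63) and LDS1 (-0.74), each with limma's adjusted p at 0.999. Without CHP replicate 1, 9 genes passed at 0 min, without CHP replicate 2 it was 3, and without control replicate 3 it was 2.

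The 6 cultures fell into 2 sets by the spread of their values, and the sets were not balanced between the arms. Over all probe sets the SD of an array was 2.14 to 2.24 in control replicates 1 and 2 and CHP replicate 1 at 3 min, and 2.36 to 2.39 in control replicate 3 and CHP replicates 2 and 3. The plot of array spread by culture shows the split already at 0 min, before CHP. Over all times the narrower set ran from 2.11 to 2.27 and the wider one from 2.27 to 2.44. Across genes at 3 min, the deviations of CHP replicate 1 from its arm's mean correlated with those of controls 1 and 2 at 0.62 and 0.56 and with those of control 3 at -0.71. Deviations within an arm cancel out, so the negative value follows from the positive ones and is no separate sign of the split. By the array SD, control replicate 3 stood apart from the other 2 controls, and CHP replicate 1 from the other 2 treated cultures. The part of this split in the results was not tested as a cause, but results are given with the set as a block, within each set, or without a culture, where they change. None of the 74 genes called below differed in sign between the sets. In 61 of the rises and 9 of the falls the arms did not overlap, which by itself fixes the sign within both sets. The equal signs are therefore no check on the split.

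**Figure D1:**
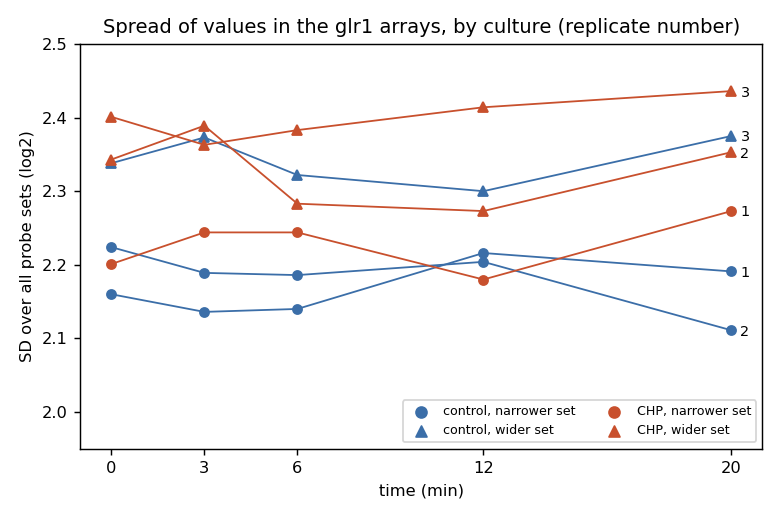
Standard deviation of the log2 values over all probe sets (vertical axis) in each of the 30 glr1 arrays against time in min (horizontal axis), 1 line per culture, with replicate numbers at the right and control in blue and CHP in orange. At 3 min control 1, control 2 and CHP 1 (circles) lie between 2.14 and 2.24, below control 3, CHP 2 and CHP 3 (triangles) between 2.36 and 2.39.

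Within 3 min, CHP raised a small group of genes for peroxide repair, thiol reduction, aldehyde reduction and export in the glr1 mutant, and lowered a smaller group that included G1 cell-cycle genes. At limma's adjusted p below 0.05, 63 genes rose (1.11% of the 5656) and 11 fell (0.194%), together 1.31% of all genes, and 9.16% had an unadjusted p below 0.05. Of these, 38 rose by at least 2-fold (0.672%) and 2 fell by at least 2-fold (0.0354%). The median difference over all genes was 0.029 on the log2 scale. In 61 of the 63 rises the 3 CHP arrays all lay above the 3 control arrays, an arrangement that 6.42% of all genes showed. The exceptions were YMR315W and RIB3, named after their values were seen. In 9 of the 11 falls all CHP arrays lay below all control arrays, as in 5.52% of all genes, and the exceptions were WSC4 and THI22. Without control replicate 3 the count grew to 214 (139 higher, 75 lower), of which 66 were among the 74. Without CHP replicate 2 it was 47, and with the set as a block it was 65, of which 60 were among the 74. The number of falls moved more than the total, from 11 to 19 after quantile normalization, 17 after centring, 6 without dim genes and 7 with the set as a block. It was 3 to 8 when a culture other than control replicate 3 was left out. With only the 6 arrays compared in the fit, 39 genes passed, and 31 passed after the 0 min difference of the arms was taken off. That subtraction adds the spread of the 0 min arrays to each test. The fit treated the 0 and 3 min samples of a culture as independent. Over all genes the correlation within a culture was 0.264, so the added spread was overstated. A call can thus be lost where the arms hardly differed at 0 min.

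**Figure D2:**
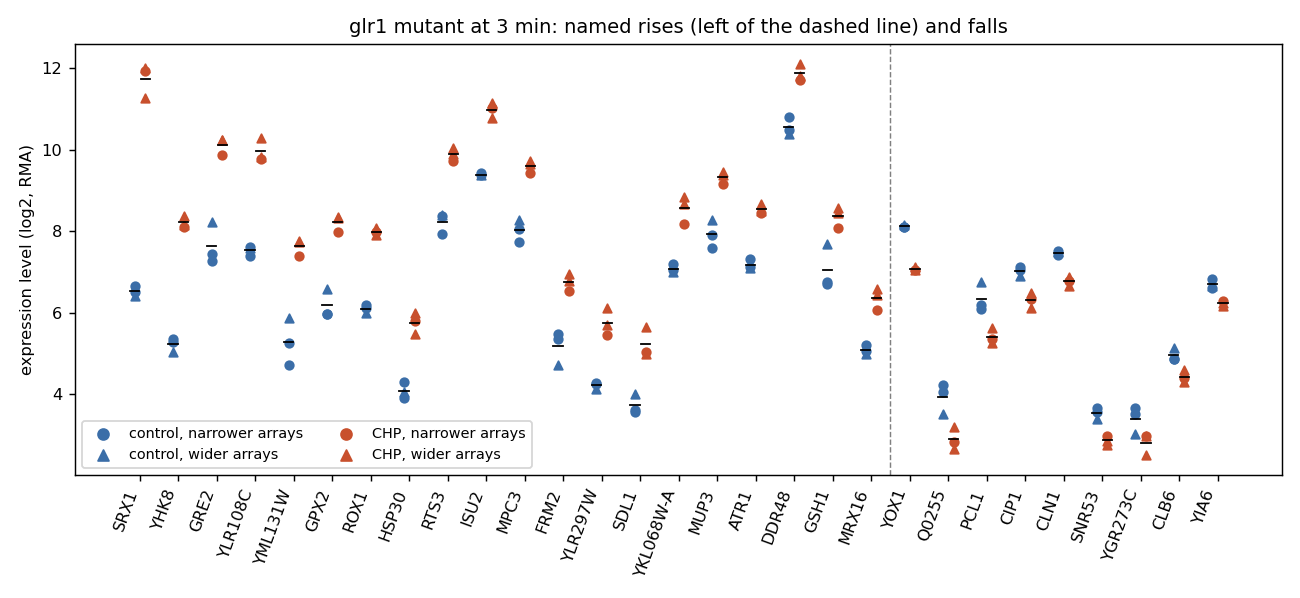
RMA level (log2, vertical axis) of the 20 largest rises and the 9 falls whose arms do not overlap, in each of the 6 glr1 arrays at 3 min, with control in blue, CHP in orange, the mean of 3 cultures as a bar, and triangles for the cultures with the wider spread. SRX1 goes from 6.41 to 6.67 in controls to 11.27 to 11.99 with CHP, while YOX1 goes from 8.10 to 8.15 down to 7.05 to 7.13.

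SRX1 (YKL086W) led the response. It read 6.50, 6.67 and 6.41 in the controls and 11.93, 11.99 and 11.27 in the CHP cultures. The arms were far apart, and CHP replicate 3 was the lowest of the treated cultures. The difference was 5.20 ± 0.32 (SE, 3 against 3 cultures), a 36.8-fold rise with limma's adjusted p at 1.78e-30. Within the narrower and the wider set the difference was 5.34 and 5.22.

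Some genes of the thioredoxin pathway that serves the peroxiredoxins rose as well. Of 13 measured genes for peroxiredoxins, sulfiredoxin and thioredoxins, 5 rose and 0 fell, with a median difference of 0.30. Over all genes 1.11% rose and 0.194% fell, the shares to set beside this and the later list counts at 3 min. TRR1, the cytosolic thioredoxin reductase, read 10.61, 10.79 and 10.95 in controls and 11.74, 11.85 and 11.77 with CHP. Its arms did not overlap, and the difference was 1.00 ± 0.11 (SE) with limma's adjusted p at 2.32e-13. The mitochondrial peroxiredoxin PRX1 rose by 1.07, the cytosolic thioredoxin TRX2 by 0.81 and the peroxiredoxin TSA2 by 0.70. TSA2 read 5.86, 5.68 and 5.63 in controls and 6.10, 7.02 and 6.14 with CHP, so CHP replicate 2 stood above the other treated cultures. Its difference was 0.33 within the narrower set and 0.95 within the wider one. TSA2 and the other list members called beyond the first 4 of their list were named after their values were seen. The peroxiredoxin genes TSA1 (0.23) and AHP1 (0.30) and the thioredoxin gene TRX1 (0.18) did not pass. With only the 6 arrays in the fit, or with the 0 min difference taken off, 2 of the 13 passed.

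Among 26 measured genes of glutathione synthesis, recycling and glutathione-dependent enzymes, 4 rose and 0 fell, and the median difference was 0.18. GPX2, a glutathione peroxidase homologue that acts on lipid hydroperoxides, read 5.98, 5.98 and 6.59 in controls and 7.99, 8.32 and 8.35 with CHP. The difference was 2.03 ± 0.23 (SE), with limma's adjusted p at 2.87e-12. GSH1, gamma-glutamylcysteine synthetase, which makes the first step of glutathione synthesis, read 6.76, 6.71 and 7.68 against 8.09, 8.58 and 8.45. Control replicate 3 was almost 1 log2 unit above the other controls, yet still below every CHP culture, and the difference was 1.32 ± 0.19 (SE) with limma's adjusted p at 3.22e-08. It was 1.36 within the narrower set and 0.84 within the wider one. The glutathione transferase GTT2 rose by 1.12 and the glutaredoxin GRX2 by 1.04. GRX2 showed the same high control 3, with 8.95, 9.25 and 9.90 in controls and 10.12, 10.51 and 10.58 with CHP. GSH2, the enzyme of the second step of synthesis, had a difference of 0.38 and GRX1 of 0.04, and neither passed. Without control replicate 3, 6 members of the 26 passed, and with only the 6 arrays in the fit 2 passed (GSH1 and GRX2 were lost). With the 0 min difference taken off, 3 passed, and GRX2 was lost.

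Enzymes that remove superoxide and peroxide in mitochondria were among the rises. SOD2, the mitochondrial manganese superoxide dismutase, rose by 0.92 ± 0.14 (SE; limma's adjusted p = 1.65e-07), from 8.54, 8.85 and 9.18 to 9.74, 9.89 and 9.69. The SOD2 call was lost with only the 6 arrays in the fit. CCP1, cytochrome c peroxidase of the intermembrane space, rose by 1.00 ± 0.22 (SE; limma's adjusted p = 0.00147), a call lost without CHP replicate 2. The other 4 measured members of this list did not pass, with 0.53 for the peroxisomal catalase CTA1, 0.49 for CCS1, 0.16 for cytosolic SOD1 and -0.15 for the cytosolic catalase CTT1.

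Oxidoreductases that act on aldehydes and enones held some of the largest changes. Of 18 measured, 4 rose and 0 fell, with a median of 0.40. GRE2, a methylglyoxal reductase, read 7.28, 7.45 and 8.22 in controls and 9.87, 10.23 and 10.24 with CHP, a rise of 2.46 ± 0.24 (SE; limma's adjusted p = 6.34e-16). YML131W, a putative oxidoreductase, read 4.73, 5.25 and 5.88 against 7.40, 7.73 and 7.77, a rise of 2.34 ± 0.23 (SE; limma's adjusted p = 3.02e-15). The controls of both genes were spread widely, with control 3 on top, and neither reached the lowest CHP culture. FRM2, a nitroreductase-type protein, rose by 1.56 with control 3 at the bottom (5.48, 5.37 and 4.72 against 6.53, 6.95 and 6.77). Its difference was 1.10 within the narrower set and 2.14 within the wider set. YNL134C rose by 1.05, and the old yellow enzyme genes OYE3 (0.70) and OYE2 (0.48) did not pass. Without control replicate 3, 8 of the 18 passed.

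Export genes were represented by single strong members. Of 21 measured multidrug and metal exporters, 3 rose and 0 fell, and the median was 0.09. YHK8, a presumed drug transporter of the major facilitator superfamily, was the second largest rise of all genes. It read 5.28, 5.37 and 5.04 in controls and 8.11, 8.38 and 8.16 with CHP, so each arm was tight and the difference was 2.98 ± 0.26 (SE), or 7.92-fold, with limma's adjusted p at 3.32e-19. ATR1, a multidrug efflux pump, rose by 1.36. The ABC transporter SNQ2 rose by 0.90 with limma's adjusted p at 0.0353, a call that was lost with the set as a block and without either of control replicates 1 and 2 or CHP replicates 2 and 3. Its arms already differed by 0.44 at 0 min.

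Of 31 measured stress transcription factors, 5 rose and 0 fell, with a median of 0.04. ROX1, the heme-dependent repressor of hypoxic genes, read 6.11, 6.2 and 6.00 in controls and 7.99, 8.07 and 7.92 with CHP, a rise of 1.89 ± 0.19 (SE; limma's adjusted p = 1.50e-14). CIN5, a bZIP factor of the Yap family, rose by 1.24, and RPN4, the activator of proteasome genes, rose by 1.22. MET28, a cofactor of sulfur-gene activation, rose by 1.21 and AFT2, an iron-responsive activator, by 0.53. YAP1 itself read 5.83, 5.90 and 6.83 in controls and 6.46, 6.92 and 7.04 with CHP, and its difference of 0.62 did not pass (limma's adjusted p = 0.0756). The MET28 call was lost with the set as a block and without control replicate 1 or CHP replicate 2, and with the 0 min difference taken off only 2 of the 5 factors passed.

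Few sulfur and iron genes were called. Of 29 measured genes of sulfate assimilation and methionine synthesis, 2 rose (6.9%, beside 1.11% of all genes), MUP3 and MET28. The list median of 0.34 lay above the 0.029 of all genes. By limma, 10 of the 29 had an unadjusted p below 0.05, all higher, beside 9.16% of all genes. In 11 the CHP arrays lay all above the controls, beside 6.42% of all genes. Without control replicate 3, 4 of the 29 passed. MUP3, a low-affinity methionine permease, read 7.59, 7.91 and 8.27 in controls and 9.15, 9.38 and 9.46 with CHP. Of all 63 rises it was the one whose arms differed by over 0.5 before CHP (0.53), and its call was lost when that difference was taken off. Of 25 iron uptake genes 1 rose (4%), MRS4, a mitochondrial iron importer, by 1.23 ± 0.21 (SE; limma's adjusted p = 4.40e-06). The MRS4 call was also lost when the 0 min difference was taken off, with arms that differed by 0.18 at 0 min. The scaffold gene ISU2, on which mitochondrial iron-sulfur clusters are built, was on no list and rose by 1.59, from 9.42, 9.37 and 9.37 to 11.02, 11.14 and 10.78. The iron reductase FRE1 had a difference of 1.02 that did not pass.

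Counted together, 15 of 32 measured Yap1 targets rose and 0 fell, 46.9% against 1.11% of all genes. Their median difference was 0.66, and SRX1 was the top member. GLR1 is itself on this list, and its signal was low in both arms of this mutant. The targets that did not pass included OYE3 (0.70), ECM4 (0.63), FLR1 (0.47) and ZWF1 (0.34). The list was drawn from general knowledge of Yap1 targets with results of these arrays known. Its count ran from 9, with only the 6 arrays in the fit, to 19 without control replicate 3.

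**Figure D3:**
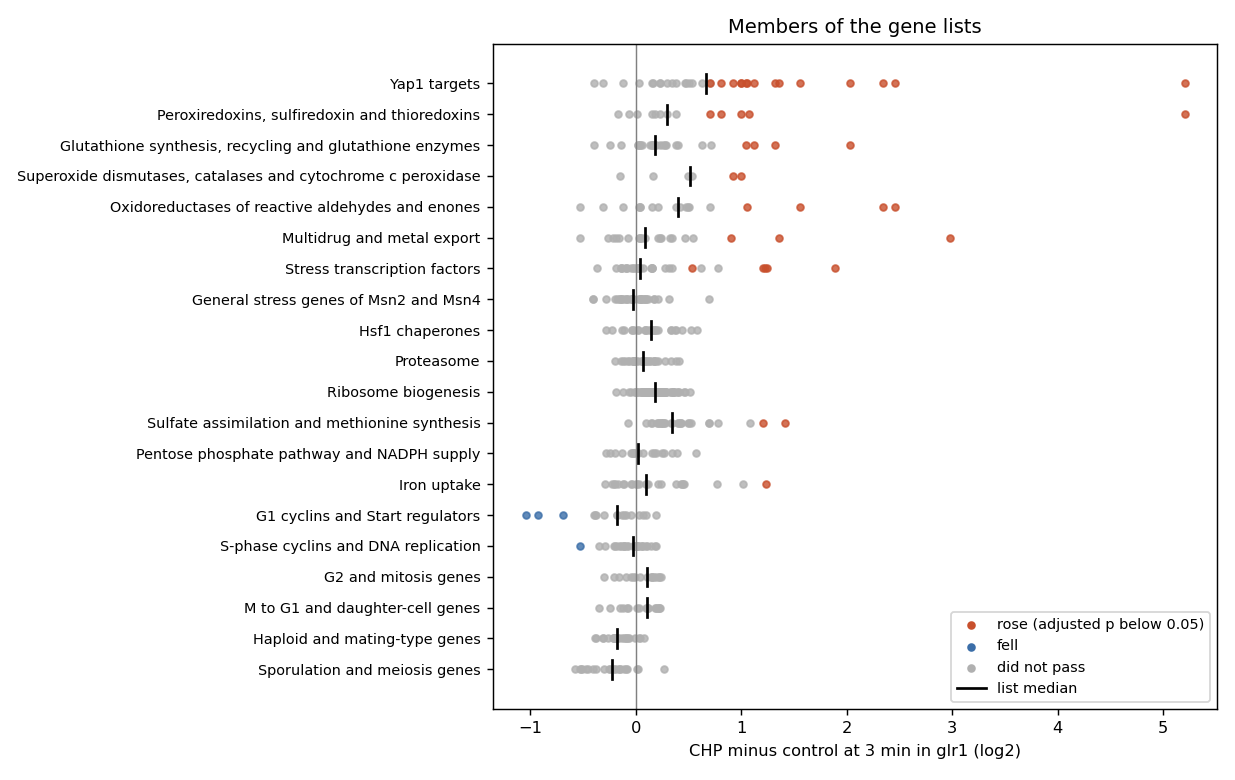
Difference between CHP and control at 3 min in glr1 (log2, horizontal axis) of each measured member of 20 gene lists (vertical axis), with members that rose in orange, fell in blue and did not pass in grey, and the list median as a black bar. The Yap1 targets have 15 of 32 members in orange, and the 3 blue members of the G1 list are YOX1, PCL1 and CLN1.

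The remaining large rises came from genes on no list, which made up 38 of the 63. YLR108C, a protein of unknown function, read 7.39, 7.62 and 7.58 in controls and 9.77, 10.29 and 9.81 with CHP, a rise of 2.42 ± 0.25 (SE; limma's adjusted p = 2.02e-14). HSP30, a stress-induced protein of the plasma membrane, rose by 1.66 from a dim level (3.92, 4.30 and 4.05 against 5.80, 6.00 and 5.47). Its call and that of YKL068W-A were lost with the 0 min difference taken off, though their arms differed by only 0.14 and 0.04 at 0 min. RTS3, a putative component of a protein phosphatase, rose by 1.64, and MPC3, a subunit of the mitochondrial pyruvate carrier, by 1.57. DDR48, a DNA-damage-responsive and stress-responsive protein, was high already in controls (10.48, 10.79 and 10.38) and rose by 1.33. The other genes among the 20 largest rises, YLR297W, SDL1, YKL068W-A and MRX16, rose by 1.53, 1.49, 1.49 and 1.27. Of the 63 rises, 14 lay among the dimmest 20% of genes in the controls.

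Among the 11 falls were 3 genes that act in G1, around Start, the commitment point of the cell cycle. Of 17 measured G1 cyclins and Start regulators, 3 fell and 0 rose, with a list median of -0.18 against 0.029 over all genes. YOX1, a homeodomain repressor of early cell-cycle genes, read 8.10, 8.11 and 8.15 in controls and 7.06, 7.05 and 7.13 with CHP. The cultures within an arm were nearly equal, and the difference was -1.04 ± 0.16 (SE; limma's adjusted p = 2.75e-07). PCL1, a cyclin of the kinase Pho85, read 6.10, 6.2 and 6.75 against 5.36, 5.63 and 5.27, a difference of -0.93 ± 0.23 (SE; limma's adjusted p = 0.00939). The G1 cyclin CLN1 read 7.42, 7.52 and 7.48 against 6.79, 6.89 and 6.67, a difference of -0.69 ± 0.14 (SE; limma's adjusted p = 0.000325). CLN2 (-0.30), CLN3 (-0.38) and YHP1 (-0.40) had differences of the same sign that did not pass. Among 27 measured genes of S-phase cyclins and replication 1 fell, the cyclin gene CLB6, by 0.53. CIP1, an inhibitor of G1 cyclin kinase, was on no list and fell by 0.71. With the 0 min difference taken off, 1 of the 17 passed, YOX1, and the calls of CLN1 and PCL1 were lost. The arms of CLN1 and PCL1 differed by only -0.05 and 0.16 at 0 min. The PCL1 call was also lost without control replicate 3, CHP replicate 1 or CHP replicate 3, and that of CLB6 without any single culture other than CHP replicate 3. The CIP1 call was lost with the set as a block and without any of control replicates 1 and 2 or CHP replicates 1 and 2.

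The other 6 falls were of genes on no list. The mitochondrial open reading frame Q0255 had a difference of -1.03, from 4.07, 4.22 and 3.52 to 2.84, 2.67 and 3.20, with control 3 and CHP 3 close to each other. WSC4, of a family of putative stress sensors, read 5.86, 6.71 and 7.45 against 5.49, 6.08 and 5.53, with arms that overlapped and a difference of -0.97 (limma's adjusted p = 0.0478). The small nucleolar RNA gene SNR53 fell by 0.67, THI22 by 0.63, YGR273C by 0.58 and the mitochondrial NAD transporter gene YIA6 by 0.47. With the set as a block, the calls of SNR53, THI22, YGR273C and YIA6 were lost, and that of Q0255 was lost without any of control replicates 1 and 2 or CHP replicates 1 and 2. Of all 11 falls, CLB6 included, 4 lay among the dimmest 20% of genes.

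In 7 other lists no member was called at 3 min, which in lists of this size is near the 1.31% called over all genes. There were 0 calls among 36 general stress genes of Msn2 and Msn4 (median -0.03), 27 Hsf1 chaperones (0.14) and 32 proteasome genes (0.07). There were also 0 among 78 ribosome biogenesis genes (0.18), 19 genes of the pentose phosphate pathway and NADPH supply (0.02), 17 genes of G2 and mitosis (0.11) and 18 of M to G1 (0.10). At an unadjusted p below 0.05, limma gave 1, 2, 1, 2, 3, 1 and 1 members of these lists in the same order, beside 9.16% of all genes. In 12 of the 78 ribosome biogenesis genes the CHP arrays lay all above the controls, and in 0 all below. Over all genes these shares were 6.42% and 5.52%. In each of the other lists at most 2 members lay apart in either direction. The 2 members with the smallest p in each list had differences between -0.41 and 0.69. In the general stress list these were TMA10 (0.69) and YGP1 (-0.41), and among the chaperones CUR1 (0.58) and APJ1 (0.52). Among the rest of these lists the pairs were RPN1 (0.41) and PRE1 (0.33) for the proteasome, UTP13 (0.47) and CIC1 (0.40) for ribosome biogenesis, and ALD6 (0.57) and TAL1 (0.39) for NADPH supply. For the later cell-cycle phases they were CLB2 (-0.30) and CHS2 (0.22), and ASH1 (-0.35) and PIR1 (0.22). Without control replicate 3, 3 proteasome genes, 1 chaperone gene and 1 gene of NADPH supply passed, and TAL1 shows that culture apart, at 10.96 against 9.75 and 9.92 in the other controls.

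Markers of other yeast cell types were low in both arms. The mean level of 24 haploid and mating-type genes was 4.66 to 4.91 in the controls and 4.58 to 4.75 with CHP, and that of 22 sporulation and meiosis genes 3.86 to 4.13 and 3.66 to 3.81. In neither list did a member pass, with medians of -0.18 and -0.23. By limma, 1 of the 24 and 7 of the 22 had an unadjusted p below 0.05, all of them lower, beside 9.16% of all genes. The CHP arrays lay all below the controls in 2 and 6 members, beside 5.52% of all genes. The smallest p-values were those of STE2 (-0.31) and MF(ALPHA)1 (-0.31) in the first and HOP1 (-0.58) and SPR28 (-0.51) in the second. Without control replicate 3, 4 sporulation genes passed.

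The wild-type response at 3 min was compared next, to ask whether the early response differed in the glr1 mutant. No gene passed in the difference of the 2 responses (0 of 5656, 0%), with 463 (8.19%) at an unadjusted p below 0.05. Limma gave 0 calls under every alternative run as well. The array SD also varied in wild type at 3 min. It was 2.334, 2.353 and 2.204 in controls 1, 2 and 3 and 2.282, 2.245 and 2.204 with CHP. The block by set separated only glr1 arrays and did not adjust for this. SRX1 in wild type read 6.35, 6.34 and 6.50 in controls and 11.10, 12.01 and 11.72 with CHP, and the glr1 response minus the wild-type response was -0.01 ± 0.46 (SE). For YHK8 this difference was 0.07 ± 0.36 (SE), for GRE2 0.43 ± 0.34 (SE), and for ROX1 0.36 ± 0.27 (SE). GSH1 responded by 1.32 in glr1 and by 0.50 in wild type, where it did not pass, and the difference of 0.82 ± 0.27 (SE) did not pass either (limma's adjusted p = 0.581).

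The smallest p-values of the difference belonged to SPT16 (0.95), NUP133 (0.66) and SFP1 (0.65) on the higher side. On the lower side they belonged to YJR151W-A (-1.07), TIR3 (-0.93) and THI22 (-0.87), all 6 with limma's adjusted p at 0.581. Wild-type control 3 stood apart in YJR151W-A (4.19, 4.06 and 5.27) but not in TIR3 (9.08, 9.18 and 9.19). Of the 63 rises in glr1, 32 were also called higher in wild type, which is 50.8% of the glr1 rises and 84.2% of the 38 wild-type rises (0.672% of all genes). All 63 had a positive difference in wild type. Their median was 1.05 in glr1 and 0.73 in wild type, but since the genes were chosen by their glr1 values the 2 medians are not a like-for-like comparison. Of the 11 falls, 4 were also called lower in wild type (YOX1, PCL1, CLN1 and CLB6), where 0.106% of all genes were called lower.

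The yap1 mutant was compared to ask which early changes differ without Yap1. The glr1 response exceeded the yap1 response in 35 genes (0.619% of all genes) and was below it in 0, and 33 of the 35 were among the 63 rises. The 2 others were HSP31 and DNM1, whose own glr1 differences of 0.53 and 0.32 did not pass, and which were named after their values were seen. SRX1 in yap1 read 6.65, 6.47 and 6.60 in controls and 6.02, 5.80 and 6.12 with CHP, with a difference of -0.60 that did not pass (limma's adjusted p = 0.543). The glr1 response minus the yap1 response was 5.80 ± 0.46 (SE) for SRX1, 2.77 ± 0.34 (SE) for GRE2, 2.56 ± 0.35 (SE) for YLR108C, 2.47 ± 0.33 (SE) for GPX2 and 2.31 ± 0.33 (SE) for YML131W. GRE2 read 5.63, 6.03 and 5.71 in the yap1 controls, below all 3 glr1 controls. The same held for YLR108C (5.13, 5.18 and 5.43), GPX2 (4.62, 5.26 and 5.03) and YML131W (4.06, 4.43 and 4.33), but not for SRX1. Of the 32 Yap1 targets 13 passed this test, and 0 of the 32 passed in the yap1 response itself. ROX1 (1.88), GSH1 (1.65), DDR48 (1.63) and ISU2 (1.57) were on the same side. With the 0 min differences taken off both responses, 10 of the 35 passed.

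A small group rose in glr1 and in yap1 alike. Of the 63 glr1 rises, 5 were also called higher in yap1, where 0.371% of all genes were, and they were YHK8, RTS3, MPC3, YKR075C and YGR035C (the last 2 named after their values were seen). MPC3 in yap1 read 8.0, 7.88 and 8.30 in controls and 9.77, 9.72 and 9.60 with CHP, a rise of 1.64 ± 0.24 (SE; limma's adjusted p = 6.61e-07). The glr1 response minus the yap1 response was -0.06 ± 0.34 (SE) for MPC3, 0.51 ± 0.26 (SE) for RTS3, -0.52 ± 0.33 (SE) for YKR075C and -0.70 ± 0.33 (SE) for YGR035C, none of which passed. YHK8 rose in yap1 by 1.07 ± 0.26 (SE; limma's adjusted p = 0.0146), and its glr1 response was larger by 1.91 ± 0.36 (SE; limma's adjusted p = 0.000207). Among the falls, YOX1, PCL1 and YIA6 were called lower in yap1 as well, by 0.80, 1.03 and 0.67, where 0.124% of all genes were called lower.

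**Figure D4:**
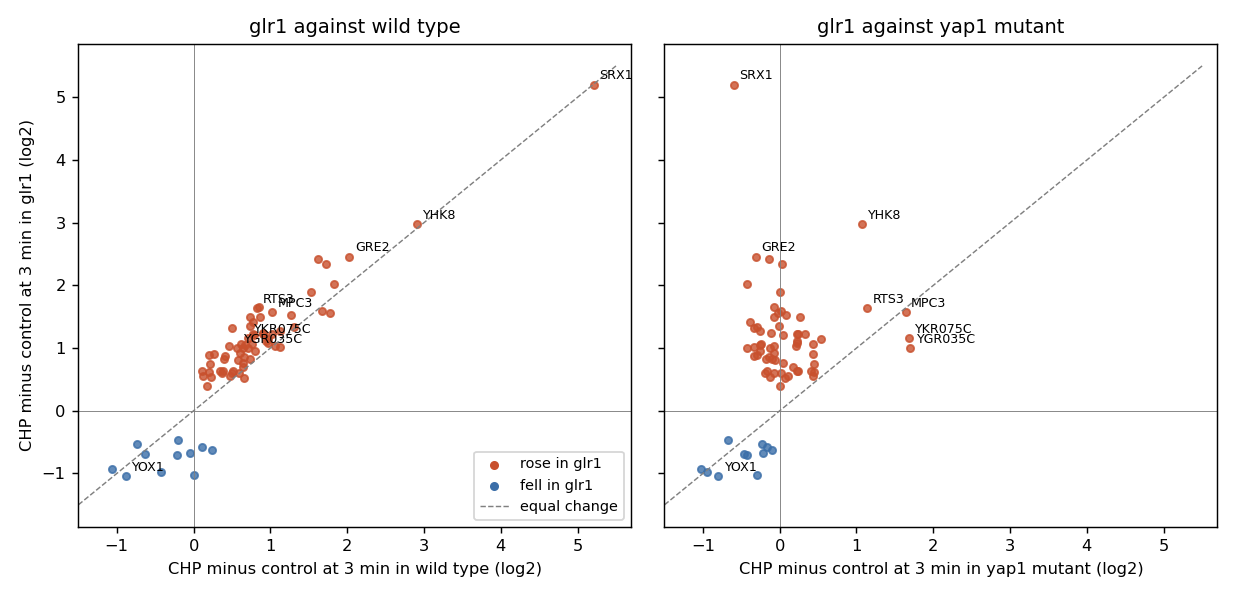
Difference between CHP and control at 3 min in glr1 (log2, vertical axes) of the 63 genes that rose (orange) and 11 that fell (blue) there, against the same difference in wild type (left) and in the yap1 mutant (right), with a dashed line at equal change. SRX1 sits at 5.21 in wild type and at -0.60 in yap1, and YHK8, RTS3, MPC3, YKR075C and YGR035C lie at 1.07 to 1.70 in yap1.

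Between 3 and 6 min the glr1 response changed in 241 genes (4.26% of all genes), of which 121 (2.14%) moved up and 120 (2.12%) down. The largest upward changes were those of HSP30 (3.66 ± 0.46, SE), YHK8 (3.42 ± 0.36, SE), OYE3 (3.09 ± 0.32, SE), FRM2 (2.75 ± 0.33, SE) and CTA1 (2.68 ± 0.25, SE). CTA1 read 3.96, 3.68 and 3.71 in controls and 4.42, 4.22 and 4.31 with CHP at 3 min, and the CHP cultures were at 7.26, 7.25 and 6.81 at 6 min. At 3 min the arms of CTA1 and of OYE3 did not overlap, but neither gene passed then, and both were called higher at 6 min. The largest downward changes were those of YOX1 (-1.89 ± 0.22, SE), VTS1 (-1.75 ± 0.24, SE), SFG1 (-1.62 ± 0.25, SE), YGR079W (-1.58 ± 0.29, SE) and PPH3 (-1.43 ± 0.31, SE). Leaving out CHP replicate 3 gave 97 such genes and leaving out CHP replicate 2 gave 424. Leaving out control 1 or control 2 gave 145 or 127. It was 534 with the culture as a random block. The same 6 cultures were sampled at both times.

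Of the 63 rises at 3 min, 61 were called higher at 6 min (10.8% of all genes), 57 at 12 min (19%) and 46 at 20 min (29.3%). Their median difference was 1.05 at 3 min, 1.79 at 6 min, 1.75 at 12 min and 1.44 at 20 min. SRX1 stood at 6.34, 6.23 and 6.15 above control at 6, 12 and 20 min. ROX1 was transient, with 2.33 at 6 min, 0.67 at 12 min and 0.21 at 20 min, and HSP30 went from 5.43 at 12 min to 1.88 at 20 min. The 2 rises not called higher at 6 min were HIT1 and GAG1. Of the rises, 6 were called lower than control at 20 min, ATG41, GAG1, MMO1, MRX19, PHD1 and YGR035C, of which ATG41 had a difference of 1.15 at 3 min and -1.69 at 20 min. The names in the last 2 counts were taken after their values were seen. Of the 11 falls, 10 were called lower at 6 min (12.7% of all genes) and 7 at 12 min (21.1%) and at 20 min (26.7%), and YOX1 was at -2.94, -2.79 and -2.83.

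The lists without a call at 3 min differed in what followed. Over all genes, 10.8%, 19% and 29.3% were called higher at 6, 12 and 20 min, and 12.7%, 21.1% and 26.7% lower. Of the 36 general stress genes 11 were called higher at 6 min and 34 at 12 and 20 min, and of the 27 chaperone genes 10, 21 and 25. Of the 78 ribosome biogenesis genes 16 were called lower at 6 min, 72 at 12 min and 78 at 20 min. Of the 32 proteasome genes 0 were called at 6 min, 15 were called higher at 12 min and 32 at 20 min. The Yap1 targets called higher numbered 26, 27 and 28 of 32 at the later times. In 14 of the 32 the response moved up past the test of the change from 3 to 6 min, beside 2.14% of all genes.

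**Figure D5:**
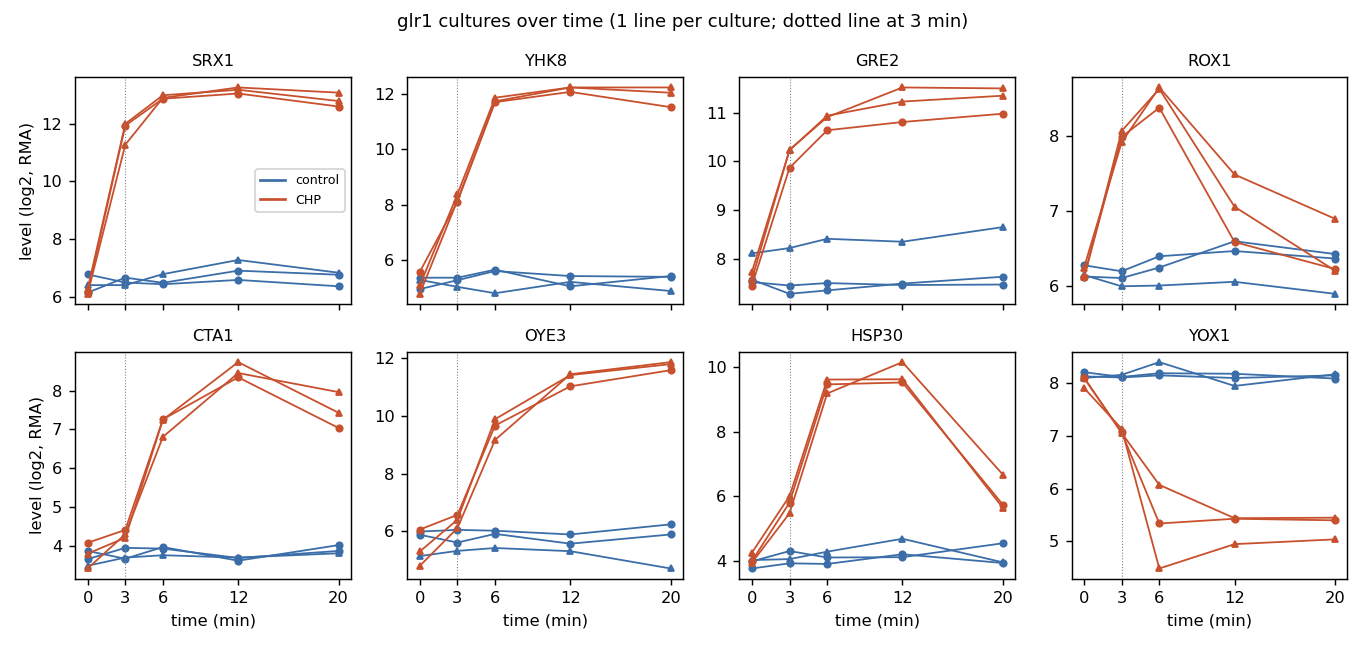
RMA level (log2, vertical axes, scaled per gene) of 8 genes in each glr1 culture against time in min, with control in blue, CHP in orange and a dotted line at 3 min. SRX1 has risen by 5.20 at 3 min, CTA1 and OYE3 are 0.53 and 0.70 above control at 3 min and 3.21 and 3.79 at 6 min, ROX1 is 0.21 above control at 20 min, and YOX1 is at 7.05 to 7.13 at 3 min and lower at 6 min.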

How the data were processed

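Levels are the log2 values that the authors deposited, made with RMA per the submitters' processing notes; the settings of RMA are not stated there. Per the labels, the RNA came from a hot phenol extraction and the arrays were Affymetrix Yeast Genome S98. Of 9335 probe sets, 60 are controls, 6504 name 1 gene, 328 several and 2443 none in the array's gene table. The probe set with the highest mean over all arrays was kept where several named a gene (315 genes), leaving 5656. No build is named for the array, so RefSeq R64 served only for locus tags and neighbours. Promoter and protein sequences were not used here.

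The model was limma 3.58.1 (R 4.3.3) with 70 group means of 210 arrays, with 140 residual degrees of freedom and Benjamini-Hochberg adjustment over all genes at 0.05. Every adjusted p printed is limma's. The labels call the 3 cultures of a group biological replicates, and samples of 1 culture were treated as independent. The rule named GLR1, SRX1, the 20 largest rises and up to 15 largest falls without overlap of the arms, up to 4 members per list called (the 2 smallest p otherwise), the 5 largest differences of responses per direction (the 3 smallest p otherwise) and 3 genes at 0 min. The genes, lists and tests were chosen with earlier results of these data known. Alternatives covered normalization, dim genes, probe sets, arrays in the fit, culture and replicate blocks, the variance model and the 0 min difference. The array set as a block and the counts of each list under the alternatives were added after seeing the data. Replicate numbers were not used to pair the arms in the main fit. The scripts were tested on simulated data. The number of arrays limits the precision.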

Additional observations from a re-analysis of the deposited data

Results flagged for a closer look

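The glr1 response to CHP at 3 min differed from that of the yap1 mutant, by a test of the difference itself, in SRX1 (5.80), GRE2 (2.77), YLR108C (2.56), GPX2 (2.47) and YML131W (2.31), all on the log2 scale and 3 against 3 cultures in each mutant. In each of these genes the 3 CHP arrays of glr1 lay above its 3 control arrays, as in 6.42% of all genes. The genes were chosen by differences that use these same arrays, so this is no separate support. Limma's adjusted p ran from 1.32e-21 for SRX1 to 6.31e-08 for YML131W.

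The glr1 response also differed between 3 and 6 min in 10 named genes, tested as the change of the response in the same 6 cultures. It grew in HSP30 (3.66), YHK8 (3.42), OYE3 (3.09), FRM2 (2.75) and CTA1 (2.68). It moved down in YOX1 (-1.89), VTS1 (-1.75), SFG1 (-1.62), YGR079W (-1.58) and PPH3 (-1.43). Of the 5 that moved down, YOX1 had already fallen at 3 min, and the other 4 had differences between -0.05 and 0.22 there that did not pass.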

How the results depend on the processing

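The call of 74 genes at 3 min moved to 39 with only the groups compared in the fit and to 31 with the 0 min difference taken off, and to between 47 and 214 when 1 culture was left out. The difference from yap1 moved from 35 to 10 with the 0 min difference taken off and ran from 25 to 38 with 1 culture left out. Taking off the 0 min difference also adds the spread of the 0 min arrays to the test, with the samples of a culture treated as independent. The change from 3 to 6 min moved from 241 to 50 with only those groups in the fit and to 534 with the culture as a random block, and ran from 97 to 424 with 1 culture left out. The arms at 0 min gave 0 to 9 calls with 1 culture left out, and the difference from wild type gave 0 throughout. Quantile normalization (85 genes at 3 min), centring (78), leaving out dim genes (63), averaging probe sets (74), an intensity trend (74) and the array set as a block (65) left the total of 74 within 1.5 times. The 11 falls became 19 with quantile normalization, 17 with centring, 6 without dim genes and 7 with the array set as a block. Replicate numbers were not used to pair the arms in the main fit. The deviations of CHP and control replicates 1, 2 and 3 at 3 min correlated at 0.62, -0.37 and 0.40. These values also carry the split by spread, so they do not settle whether the replicates were paired. With the replicate block 91 genes were called at 3 min (71 higher, 20 lower), of which 71 were among the 74, and the other 4 comparisons gave 0, 41, 291 and 0. Of 43 named genes past the threshold, 20 stayed past it under every alternative, 19 of 33 rises and 1 of 10 falls (YOX1), and 0 changed sign. The cause of these shifts was not tested.

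With 3 cultures per arm and a spread that differed between arrays, small differences were not detectable. The sets were defined from the arrays' spread, not from a label, and they are unbalanced between the arms. A scan date or batch was not given in the sources used here. Control replicate 3 decides much of the count, and among named genes the calls of SNQ2, MET28, CIP1, SNR53, THI22, YGR273C and YIA6 rest on the unblocked fit.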

Other observations

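Among the genes called at 3 min, 5 pairs were direct neighbours in the RefSeq annotation, and both members rose in each pair. As 63 of the 74 calls were rises, that direction carries little weight, and the number of pairs expected by chance was not computed. They were CYT2 with SRX1, RTS3 with YGR161W-C, NIT1 with YIL165C, FMP48 with YGR050C, and PHD1 with MMO1. SRX1 and RTS3 were named by the rule, the others after their values were seen. CYT2, a heme lyase for cytochrome c1, read 7.43, 7.64 and 7.87 in controls and 8.60, 8.99 and 8.22 with CHP, a difference of 0.95 beside the 5.20 of SRX1. In the yap1 mutant the CYT2 difference was -0.25 and did not pass, and the glr1 response exceeded it by 1.20 (limma's adjusted p = 0.000686). YIL165C rose by 1.22 and NIT1 by 1.08, and in the S288C reference these are parts of 1 nitrilase reading frame. For YGR161W-C the difference was 0.74 beside 1.64 for RTS3, and for MMO1 it was 0.77 beside 1.06 for PHD1. By their locus tags, CYT2 and SRX1, RTS3 and YGR161W-C, and FMP48 and YGR050C lie on opposite strands. NIT1 and YIL165C lie on the same strand, as do PHD1 and MMO1. Probe sets of neighbours on the same strand may read the same transcript, and this was not tested.

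Further rises on no list, chosen after their values were seen and with no list behind them, were IBA57, which matures iron-sulfur proteins (0.64), AIF1 (0.40), MAS1, a subunit of the matrix processing peptidase (0.54), and RPM2 (0.60). The riboflavin synthesis genes RIB1 and RIB3 rose by 0.64 each. OCH1, a mannosyltransferase of the Golgi, rose by 0.89, and GLY1, a threonine aldolase, by 0.82. In wild type GLY1 also rose, by 0.73. For OCH1, IBA57 and MAS1 the wild-type differences were 0.20, 0.11 and 0.23, and the glr1 response minus the wild-type response did not pass in any of the 3.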
